A study of Mus musculus with 48 samples.

Results

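Vegfa and 8 other genes of the response to low oxygen were followed in all 48 libraries of a brain RNA sequencing series. The members were taken by symbol: Hif1a, Epas1, Hif3a, Egln1, Egln3, Vegfa, Adm, Ankrd37 and Pfkfb3. All 9 were found among the 56893 genes of the deposited count table, and all 9 were among the 17352 genes with enough counts to be tested. Polyadenylated RNA came from 1 brain hemisphere of each of 48 adult mice, aged 5.5 to 8.5 months, with 4 mice in each of 12 groups of sex, genotype and feeding state. Controls carried Grin1fl/fl without a recombinase, except that 1 of them, female control unrestricted replicate 2, was Grin1fl/+. Knockouts were Aldh1a1+/P2A-CreERT2::Grin1fl/fl, in which CreERT2, a recombinase activated by tamoxifen, sits in Aldh1a1, so that loss of the NMDA receptor subunit gene Grin1 is limited to cells that use that promoter, and the labels name no inducer. All mice were moved from group housing to single cages and were killed with carbon dioxide followed by decapitation. Unrestricted mice spent about 48 h alone with chow, restricted mice went through 2 nights of restricted food, with chow in between, and refed mice had, after such nights, 72 h of free grain-based pellets from a feeding device.

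Cells read oxygen through the hypoxia-inducible factors, or HIFs. Prolyl hydroxylases encoded by the Egln genes use oxygen to mark the HIF alpha subunits encoded by Hif1a and Epas1 for destruction, and when oxygen is short the subunits pair with ARNT and switch on genes such as Vegfa, Adm, Ankrd37, Pfkfb3 and Egln3. In the brain Vegfa, the vascular endothelial growth factor gene, is made largely by astrocytes and neurons and acts on receptors of the endothelium, while the product of Hif3a has forms that oppose the other factors. HIF alpha subunits are regulated mostly as proteins, which were not measured, so transcript levels of Hif1a and Epas1 do not give the activity of the factors.

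Library totals ran from 7574827 to 16185373 expected counts, with a median of 10515486. As a check of the labels, Aldh1a1, which carries the inserted cassette, was lower in knockouts by a log2 change of -0.92 (SE 0.05, adjusted p 1.42e-16, edgeR), and Grin1 in the whole hemisphere did not pass the test (0.02, SE 0.04, adjusted p 1). Neuronal, astrocytic and oligodendrocyte markers were detected in every library, as in brain. The summed level of 10 skeletal muscle genes was 7600 CPM (scaled counts, as a share of each library's total) in male control refed replicate 1 and 620 CPM in female control restricted replicate 2, against at most 41.8 CPM in the other libraries, and a ribosomal RNA gene took 7.78% of the counts of female knockout unrestricted replicate 2. Library numbers in the labels run from 1 to 48. All 16 refed libraries are numbered up to 28, with 5 unrestricted and 7 restricted ones, so refeeding and library number can be told apart only in part.

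The DNA before the start sites of 3 members is shown because these 3 moved between feeding states, and the capitals mark ACGTG or GCGTG, the core letters of a hypoxia response element, on either strand (CACGT or CACGC when read from the other strand). Positions are in GRCm39, the build named mm39 in the submitters' processing notes, and each sequence reads 5′ to 3′ on the gene's own strand, which is the minus strand for all 3. Start sites are those of the canonical transcripts. The Hif3a and Vegfa windows hold the 250 bases before the start site, and the Ankrd37 window holds the 150 of them farthest from it. The Ankrd37 window lies inside the annotated span of the gene, so it is upstream of the canonical transcript only. A further stretch of 48 bases lies upstream of Vegfa and has in capitals TACGTGGG, the letters of the hypoxia response element known for this gene, whose first letter is 918 bases before the start site.
Hif3a, chr7:16796353-16796602: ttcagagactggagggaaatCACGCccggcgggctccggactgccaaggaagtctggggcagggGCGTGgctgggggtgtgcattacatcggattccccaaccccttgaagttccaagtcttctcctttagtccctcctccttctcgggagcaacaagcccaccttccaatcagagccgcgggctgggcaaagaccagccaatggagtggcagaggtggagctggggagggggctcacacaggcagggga
Ankrd37, chr8:46453006-46453155: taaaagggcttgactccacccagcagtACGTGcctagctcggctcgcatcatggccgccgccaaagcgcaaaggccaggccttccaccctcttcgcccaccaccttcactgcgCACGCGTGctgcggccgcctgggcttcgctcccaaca
Vegfa, chr17:46343310-46343559: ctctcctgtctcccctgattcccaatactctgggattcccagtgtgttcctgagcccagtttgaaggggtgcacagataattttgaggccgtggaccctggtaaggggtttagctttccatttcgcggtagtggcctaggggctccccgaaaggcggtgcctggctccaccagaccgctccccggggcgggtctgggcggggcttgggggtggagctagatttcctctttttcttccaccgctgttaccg
Vegfa upstream stretch, chr17:46344200-46344247: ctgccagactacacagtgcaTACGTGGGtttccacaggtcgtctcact
Hif3a had 2 matches and Ankrd37 had 3, of which the neighbouring pair overlap on opposite strands. Vegfa had none in its nearest 250 bases, which says only that these letters are not in that window. Among the members, 7 of 9 held at least 1 match in the 250 bases before the start site, and Vegfa and Pfkfb3 held none. The windows of Hif1a and Pfkfb3, like that of Ankrd37, lie inside the annotated gene span, and that of Epas1 reaches into it. The same letters were in 8404 of 17050 such windows of tested genes (49.3%), and 22.4% of windows held 2 or more, so a match is common. The matches of Hif1a and of Egln1 each lie in a CACGTG, which other factors also bind and which 7.2% of windows held. TACGTGGG was rarer, in 209 of 17048 windows of 1250 bases (1.23%).

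Per length of transcript, Vegfa and Epas1 were the most abundant members. Vegfa averaged 28.3 CPM per kilobase (SD 3.41, n = 48 libraries), Epas1 27.4 (SD 2.70) and Egln1 22 (SD 1.23). Hif1a followed at 10.2 (SD 0.81), Pfkfb3 at 6.80 (SD 0.65), Ankrd37 at 5.44 (SD 1.25) and Egln3 at 3.05 (SD 0.39), and Adm and Hif3a were lowest at 1.74 (SD 0.53) and 1.72 (SD 0.94). These SDs include the differences between feeding states, and members were not tested against each other within libraries. The ranges of mean ± SD overlapped for Vegfa and Epas1, for Pfkfb3 and Ankrd37, and for Adm and Hif3a. The order at the top moved with feeding. In unrestricted mice Vegfa averaged 32.3 CPM per kilobase against 26.1 for Epas1, and in refed mice Vegfa averaged 25.5 against 28.3 for Epas1. At the bottom, Hif3a averaged 0.85 CPM per kilobase in unrestricted mice, 2.80 in restricted and 1.5 in refed mice.

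After 2 nights of restriction Hif3a was higher and Vegfa was lower than in unrestricted mice, and no other member passed the test. After 3 days of refeeding Hif3a had come down part of the way and Ankrd37 was lower than under restriction. Vegfa had not come back to the unrestricted level. In refed mice its median was lowest, below every unrestricted mouse, though the step from restriction was not called. Refed mice also ate pellets from a feeding device where unrestricted mice had chow, and their procedure was longer. Such differences and the refeeding itself cannot be told apart in any comparison with refed mice. Changes here are log2 changes from edgeR, averaged over both genotypes and, unless a sex is given, both sexes, and a gene is called when its Benjamini-Hochberg adjusted p is under 0.05. In restricted against unrestricted mice 2 of 9 members were called, against 15.2% of all genes tested. In refed against restricted mice again 2 of 9 were called, against 15.2%, and in refed against unrestricted mice 2 of 9, against 0.738%. The first pair of counts lies near its background and says nothing about the members together, so the results are given gene by gene. These 3 comparisons share libraries with each other and are no independent repeats. Overlap between states was counted for the members only, so the share of all genes that separate as fully is not known.

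**Figure D1:**
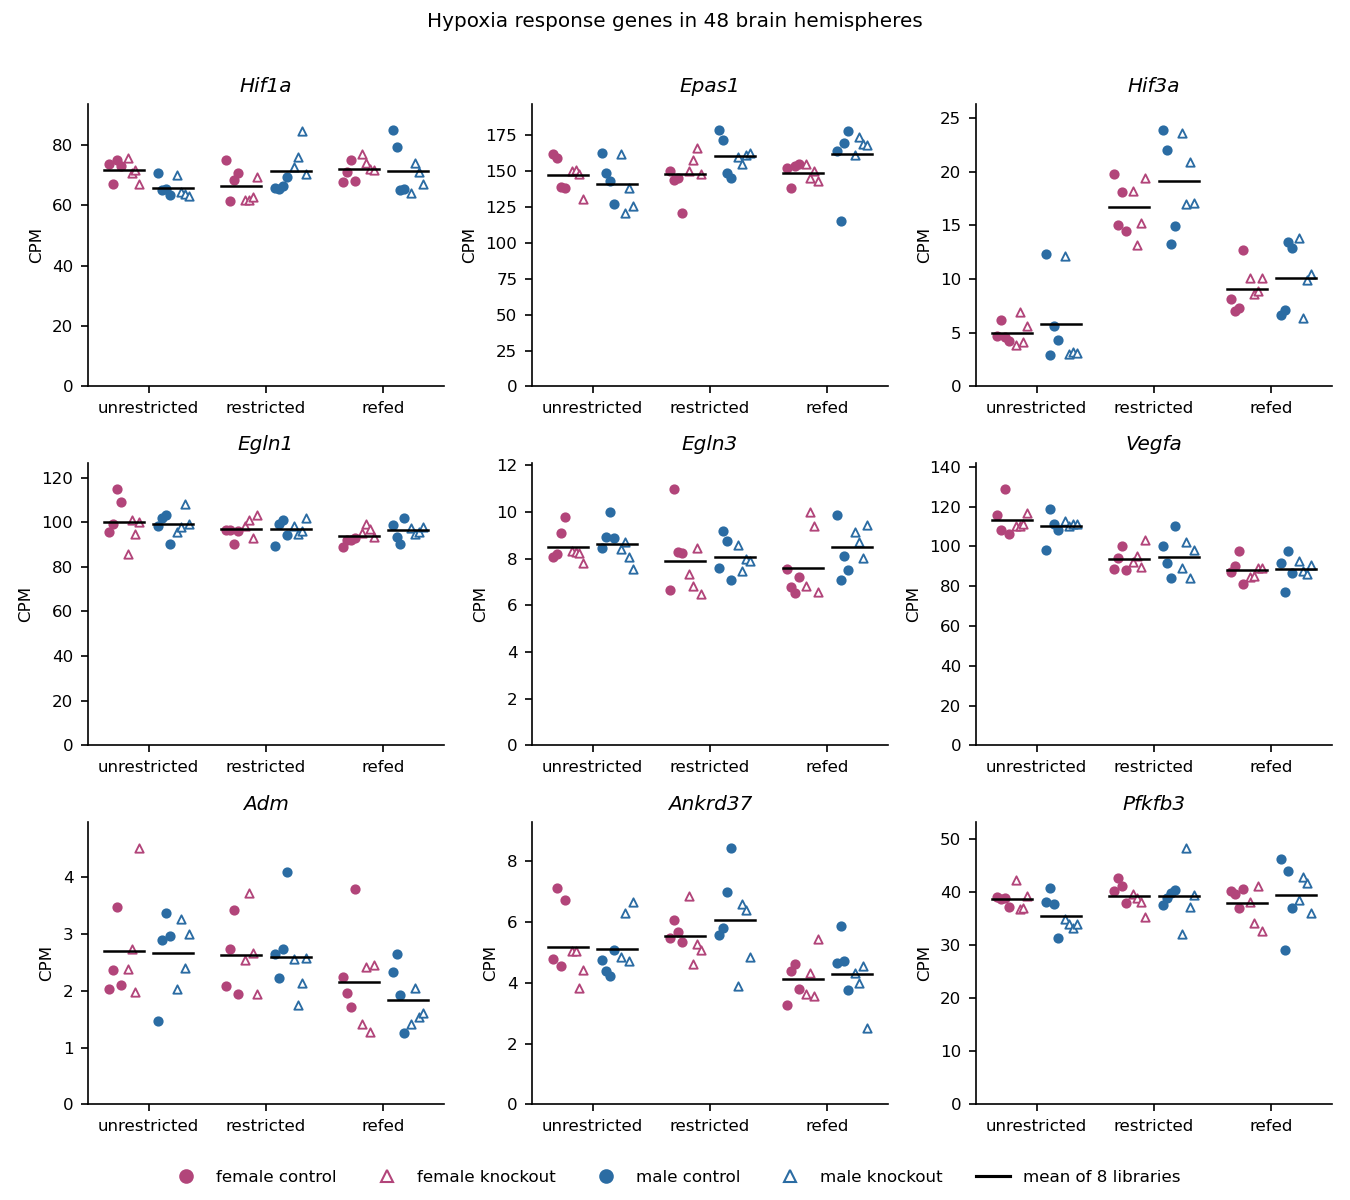
CPM of each of the 9 members (vertical axis, from 0) in the 3 feeding states, with 1 point per library, females in red and males in blue, filled circles for controls and open triangles for knockouts, and a line at the mean of 8 libraries. Hif3a in restricted mice (13.2 to 23.9 CPM) lies above every unrestricted mouse (2.96 to 12.3), and Vegfa in refed mice (77.1 to 97.8) lies below every unrestricted mouse (98.0 to 129).

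Hif3a (chr7:16764918-16796352, minus strand, 15 exons in its canonical transcript) was the member with the largest change. In unrestricted mice the lowest of 16 libraries was at 2.96 CPM, the median at 4.43 and the highest at 12.3. In restricted mice these were 13.2, 17.6 and 23.9 CPM, and in refed mice 6.41, 9.40 and 13.8 CPM. All 16 restricted mice were above all 16 unrestricted mice, 14 of 16 refed mice were below all restricted mice, and all 16 refed mice were above the unrestricted median. Restriction raised Hif3a 3.32-fold, a log2 change of 1.73 (SE 0.16, adjusted p 6.04e-11, edgeR). From restriction to refeeding it fell by 0.90 (SE 0.15, adjusted p 3e-05, edgeR), and refed mice were still 1.78-fold above unrestricted ones (log2 0.83, SE 0.17, adjusted p 0.00659, edgeR). Per sex that difference was 0.86 in females, with all 8 refed above all 8 unrestricted mice, and 0.81 in males, and neither was called (adjusted p 0.42 and 0.163). The log2 change upon restriction was 1.74 in females and 1.73 in males, where Hif3a and Vegfa were the 2 of 9 members called in each sex, against 6.27% and 8.28% of all genes. Upon refeeding it was -0.88 and -0.92, where Hif3a and Ankrd37 were the 2 called, against 6.1% and 8.33%.

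By genotype, Hif3a in unrestricted mice averaged 4.90 CPM (SD 0.85, n = 4) in female controls, 5.13 (SD 1.41) in female knockouts, 6.31 (SD 4.17) in male controls and 5.35 (SD 4.49) in male knockouts. Under restriction the same groups averaged 16.9 (SD 2.54), 16.5 (SD 2.83), 18.5 (SD 5.20) and 19.6 CPM (SD 3.20), and after refeeding 8.78 (SD 2.68), 9.43 (SD 0.80), 10 (SD 3.65) and 10.2 CPM (SD 3.02). The group mean was higher under restriction than without it in 4 of 4 combinations of sex and genotype, lower after refeeding than under restriction in 4 of 4, and higher after refeeding than without restriction in 4 of 4. The wide SDs of the unrestricted males came from 1 mouse in each group. Male control unrestricted replicates 1 to 4 were at 12.3, 2.96, 5.63 and 4.30 CPM, and male knockout unrestricted replicates 1 to 4 at 12.1, 3.05, 3.17 and 3.08 CPM. The 2 high mice are library numbers 9 and 10, the only unrestricted males numbered up to 28. They also had the highest Fkbp5 of the unrestricted males, a gene induced by glucocorticoids, at 38.4 and 39 CPM against at most 29.1, and the highest Per2, a clock gene, at 46.3 and 53.8 CPM against at most 37.5. These 2 genes were picked after their values were seen. The summed level of the whole glucocorticoid list was 866 and 1050 CPM in those mice, against 752 to 908 in the other 6 unrestricted males, so only male control replicate 1 lay above them.

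What those 2 mice add to the Hif3a values was measured directly. Without both, the restriction change was 2.06 and the refed change against unrestricted 1.16 (adjusted p 1.85e-07, edgeR), 1.46 in males alone (adjusted p 1.44e-05). With a term for library number the restriction change stayed at 1.69, but refed against unrestricted was 0.49 (adjusted p 0.447), and in libraries numbered up to 28 alone it was 0.30 (adjusted p 1). So the rise under restriction was called for both sexes together with and without the term, within library numbers up to 28 (1.38, adjusted p 0.000666) and within those from 29 (1.98, adjusted p 2.3e-10). The remainder after refeeding was not called within library numbers up to 28. In males alone it ran from -0.27 to 1.46 over 14 alternative fits, so its direction in males depended on the fit. In males numbered up to 28 alone, the restriction change was 0.93 (adjusted p 0.246).

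The genes of a glucocorticoid list moved alongside Hif3a. Their summed level was 746 to 1060 CPM in unrestricted, 1280 to 1560 in restricted and 751 to 1090 in refed mice. Of 14 tested genes of that list, 13 were higher under restriction and 14 were lower upon refeeding, and 3 were above unrestricted mice after refeeding, namely Fkbp5 (0.37), Tsc22d3 (0.30) and Zbtb16 (0.60). Of all genes, 15.2%, 15.2% and 0.738% were called in these comparisons. The list was chosen with earlier results of these data known. The part of library number in these 3 calls was not tested. Replicate 1 of the unrestricted male knockouts and controls had Fkbp5 of 38.4 and 39 CPM, within the 25.4 to 45.7 CPM of refed males. Low-numbered unrestricted females, control replicate 1 and knockout replicates 1 and 2, had 24.3, 23.8 and 31.5 CPM. Refed females had 26.6 to 38.2 CPM. The part of the glucocorticoid list, or of the hormone, in the Hif3a change was not tested.

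Neither gene of the subunits that carry the oxygen response was called between feeding states. Hif1a (chr12:73948149-73996321, plus strand) had a median of 68.6 CPM in unrestricted, 68.8 in restricted and 71.4 in refed mice, with overlapping ranges of 63.1 to 75.7, 61.4 to 84.7 and 64.1 to 85.0. Its log2 change was 0.00 (SE 0.04, adjusted p 1, edgeR) upon restriction, but -0.11 in females and 0.12 in males, at unadjusted p of 0.0271 and 0.0261 and neither called. The difference between the sexes in their feeding changes had an unadjusted p of 0.00894 for Hif1a and was not called over all genes. Epas1 (chr17:87061087-87140838, plus strand), an abundant HIF alpha of vessels and astrocytes, had medians of 145, 153 and 155 CPM in the same order of states. It was 0.10 higher upon restriction (SE 0.05, adjusted p 0.178, edgeR) and 0.11 higher after refeeding than without restriction (adjusted p 0.312). In males Epas1 differed by 0.19 upon restriction (adjusted p 0.0708) and in females by 0.01 (adjusted p 0.984). Epas1 was called in some other fits, for restriction in males with age as a covariate (0.19, adjusted p 0.0387) and with limma voom (0.20, adjusted p 0.016).

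Neither oxygen sensor among the members was called in any of the 3 comparisons. Egln1 (chr8:125635308-125676865, minus strand), the main prolyl hydroxylase, had medians of 99.2, 96.5 and 95.1 CPM in unrestricted, restricted and refed mice. Its largest log2 change was -0.07 (SE 0.03, adjusted p 0.319, edgeR), in refed against unrestricted mice. Egln3 (chr12:54225767-54250673, minus strand), a hydroxylase gene that is itself a HIF target, had medians of 8.38, 7.94 and 7.79 CPM and a restriction change of -0.10 (SE 0.06, adjusted p 0.324, edgeR). Of 14 other genes of the machinery, 3 were called upon restriction, not far from the 15.2% of all genes. Cited2, a competitor of HIF for its coactivator, was higher by 0.25 and P4htm, a membrane-bound prolyl hydroxylase, by 0.12, and Npas3, a relative of the HIF subunits, fell by 0.31. Upon refeeding Cited2 (-0.24) and Npas3 (0.32) were called with the opposite sign. Against unrestricted mice edgeR called 0 of the 14 after refeeding, with 3 at an unadjusted p under 0.05 and a background of 0.738% of all genes called, and the list's median change was -0.01 beside 0.00 for all genes.

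Vegfa (chr17:46327919-46343309, minus strand, 7 exons in its canonical transcript) was lower under restriction and lowest after refeeding. In unrestricted mice the lowest of 16 libraries was at 98.0 CPM, the median at 111 and the highest at 129. In restricted mice these were 84.2, 93.4 and 110 CPM, and in refed mice 77.1, 88.2 and 97.8 CPM. The refed and unrestricted mice did not overlap, while 10 of 16 restricted mice were below all unrestricted mice and all 16 were below the unrestricted median. How many other genes separate in this way was not counted. Restriction lowered Vegfa by 15.5%, a log2 change of -0.24 (SE 0.04, adjusted p 3.62e-06, edgeR). Refed mice were 20.9% below unrestricted ones (log2 -0.34, SE 0.04, adjusted p 7.82e-08, edgeR), and by p-value Vegfa ranked 3rd of all 17352 genes in that comparison. The step from restricted to refed was -0.09 (SE 0.04) and was not called (adjusted p 0.0806), although 14 of 16 refed mice were below the restricted median.

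Both sexes showed the Vegfa decrease. In females all 8 restricted mice (88.0 to 103 CPM) were below all 8 unrestricted mice (106 to 129 CPM), a change of -0.27 (SE 0.05, adjusted p 0.000497, edgeR). In males the ranges were 84.2 to 110 and 98.0 to 119 CPM, 4 of 8 restricted mice were below all unrestricted ones, and the change was -0.21 (SE 0.05, adjusted p 0.00586, edgeR). Refed females ranged from 80.9 to 97.7 CPM and refed males from 77.1 to 97.8, in each sex with no overlap with the unrestricted mice. Their changes against unrestricted mice were -0.37 in females (adjusted p 0.000304) and -0.31 in males (adjusted p 0.00182), and Vegfa was then the 1 member called of 9 in each sex, against 0.0403% and 0.167% of all genes.

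Within genotypes, Vegfa in unrestricted mice averaged 115 CPM (SD 10.4, n = 4) in female controls, 112 (SD 3.59) in female knockouts, 109 (SD 8.79) in male controls and 111 (SD 1.17) in male knockouts. Under restriction the same groups averaged 92.7 (SD 5.66), 95.0 (SD 5.80), 96.5 (SD 11.1) and 93.4 CPM (SD 8.06). After refeeding they averaged 88.9 (SD 6.97), 87.1 (SD 2.40), 88.4 (SD 8.79) and 89.3 CPM (SD 2.97). Every combination of sex and genotype was lower under restriction (log2 -0.30 to -0.18) and lower still after refeeding (-0.37 to -0.30 against unrestricted).

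**Figure D2:**
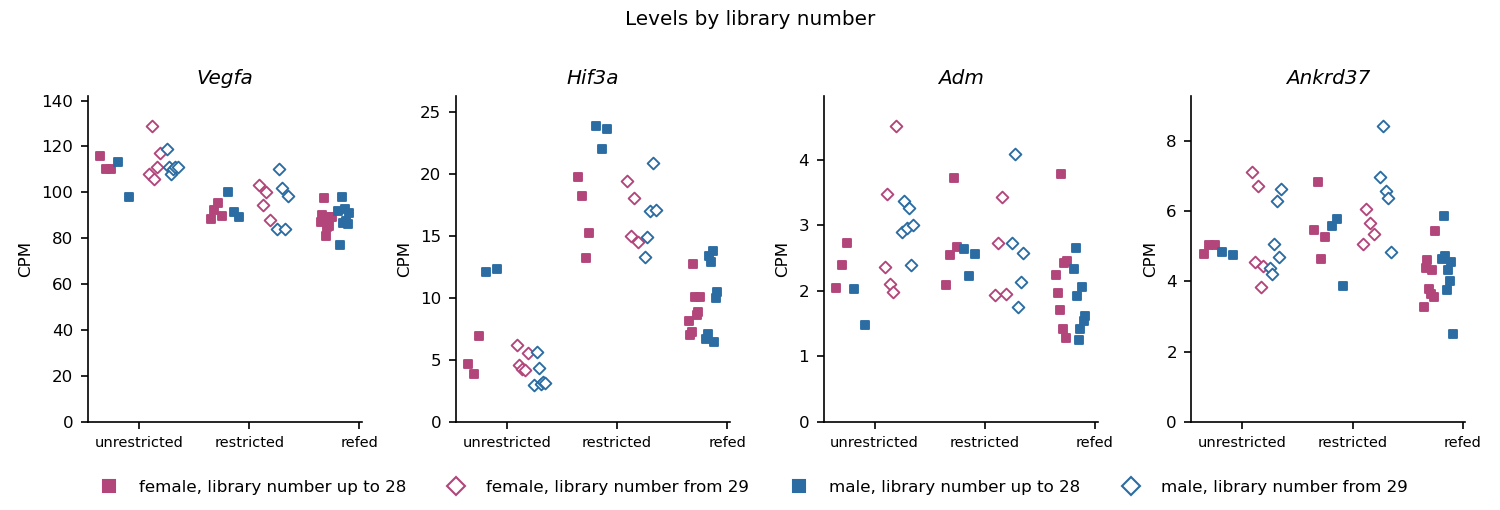
CPM of Vegfa, Hif3a, Adm and Ankrd37 (vertical axes, from 0) in the 3 feeding states, split by library number in the labels, with squares for numbers up to 28, open diamonds for numbers from 29, red for females and blue for males. All 16 refed libraries are numbered up to 28, the 2 highest unrestricted Hif3a values (12.1 and 12.3 CPM) belong to males numbered up to 28, and refed Vegfa lies below unrestricted Vegfa in those numbers too (medians 88.2 and 110 CPM).

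The Vegfa decrease was also there within library numbers. Among numbers up to 28, the 5 unrestricted mice ranged from 98.0 to 116 CPM, the 7 restricted from 88.5 to 100 and the 16 refed from 77.1 to 97.8. In those libraries alone the refed change was -0.29 (adjusted p 0.0107, edgeR) and the restriction change -0.25 (adjusted p 0.0224), and with a term for library number the refed change was -0.29 (adjusted p 0.000271). Per sex the call was lost there: refed against unrestricted was -0.35 in females (adjusted p 0.0754) and -0.24 in males (adjusted p 1), where 2 unrestricted males remained. The male call in that comparison was also lost with the library number term over all libraries (-0.26, adjusted p 0.111, edgeR). Upon restriction the calls per sex were lost in both number classes, with adjusted p of 0.0711 up to 28 and 0.266 from 29 in females, and 0.543 and 0.0821 in males. Without the libraries rich in muscle transcripts the refed change of Vegfa was -0.34 (adjusted p 2.09e-07). Leaving out each of the 48 libraries in turn moved it between -0.35 and -0.32, always called.

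Red cell and clock genes differed along with refeeding, and clock genes differed upon restriction too. The 6 red cell genes summed to 287 to 1340 CPM in unrestricted, 289 to 819 in restricted and 781 to 2720 in refed mice, and all 6 were called higher in refed mice than in either other state. Of all genes, 15.2% were called in refed against restricted mice and 0.738% in refed against unrestricted mice. Of 15 clock genes, 7 were higher and 1 was lower in refed than in unrestricted mice, with Per2 at 0.65, and the labels used here give no hour of collection. Upon restriction, 10 of the 15 reached an unadjusted p under 0.05 (edgeR), against 26.8% of all genes. The clock genes summed to medians of 1400, 1500 and 1560 CPM in unrestricted, restricted and refed mice. The part of library number in these calls of red cell and clock genes was not tested. Nor was the part of blood content in the Vegfa level, or of the hour in the levels of Vegfa and Hif3a. In bulk tissue, fewer cells of a type and less RNA per cell cannot be told apart. Neuronal markers summed to medians of 6740, 6610 and 6590 CPM and astrocyte markers to 4060, 4070 and 4090 CPM in unrestricted, restricted and refed mice, with 0 of 10 neuronal markers called in any of the 3 comparisons and 2 astrocyte markers called in each direction in both comparisons with restricted mice. Of 9 microglia markers, 5 were lower upon restriction and 7 higher upon refeeding, against 15.2% of all genes called in each comparison. Of 9 oligodendrocyte markers, 6 were lower and 1 higher upon restriction, and 6 were higher and 1 lower upon refeeding, against the same 15.2%. The part of these cell types in the members' changes was not tested.

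**Figure D3:**
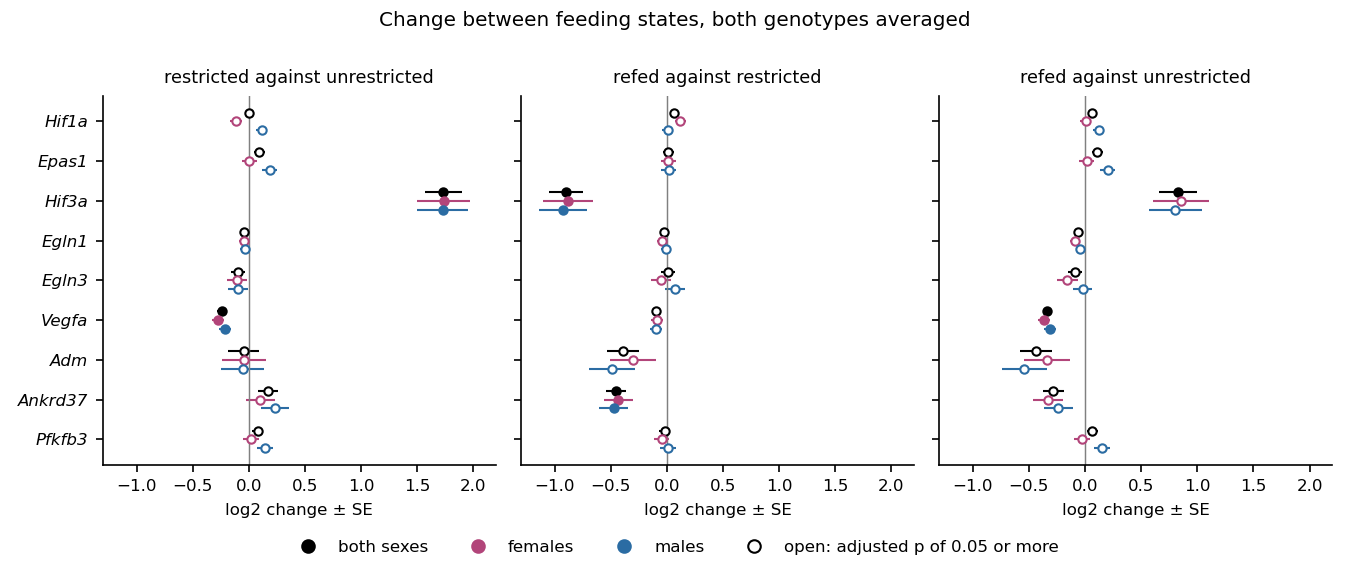
Log2 change ± SE of the 9 members (horizontal axis) in the 3 comparisons of feeding states, for both sexes (black), females (red) and males (blue), with filled points where the adjusted p was under 0.05. Hif3a is called upon restriction (1.73) and upon refeeding (-0.90), Vegfa upon restriction (-0.24) and in refed against unrestricted mice (-0.34), and Ankrd37 in refed against restricted mice (-0.45).

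Of the remaining HIF targets among the members, Ankrd37 was called in 1 comparison, and Adm and Pfkfb3 in none. Ankrd37 (chr8:46449939-46458744, minus strand), an ankyrin repeat gene strongly induced by HIF, had its lowest value, median and highest value at 3.84, 4.80 and 7.12 CPM in unrestricted, 3.88, 5.62 and 8.44 in restricted and 2.51, 4.32 and 5.86 in refed mice. The 3 ranges overlapped, but 15 of 16 refed mice were below the restricted median. Ankrd37 was 27% lower in refed than in restricted mice (log2 -0.45, SE 0.09, adjusted p 0.000381, edgeR), and lower in 4 of 4 combinations of sex and genotype. Its change upon restriction was 0.17 (SE 0.09, adjusted p 0.226, edgeR) and that in refed against unrestricted mice -0.29 (SE 0.09, adjusted p 0.16). In libraries numbered up to 28 alone the change upon refeeding was -0.28 (adjusted p 0.201), and with a term for library number it was -0.36 (adjusted p 0.0171). In males the call (-0.47, adjusted p 0.014) was lost without male control restricted replicate 4, the highest library at 8.44 CPM (adjusted p 0.0512), and in females (-0.43, adjusted p 0.0394) without any of 10 single libraries. Ankrd37 overlaps Ufsp2 and Lrp2bp on the other strand, and reads from such genes may not have been told apart, since the strand setting of the counting is not given in the sources used here. Apart from Egln3, the members all overlap another annotated gene, mostly non-coding ones.

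Adm encodes adrenomedullin, a peptide that widens vessels. Adm (chr7:110226858-110229027, plus strand) had medians of 2.56, 2.57 and 1.95 CPM in unrestricted, restricted and refed mice, with ranges of 1.47 to 4.52, 1.75 to 4.09 and 1.25 to 3.79. Refed mice were below the restricted median in 14 of 16 cases and below the unrestricted median in 14 of 16, and neither change was called. The log2 change was -0.39 against restricted (SE 0.14, adjusted p 0.0548, edgeR) and -0.44 against unrestricted mice (SE 0.14, adjusted p 0.156, edgeR). The change against restricted mice was near the threshold. It was called with limma voom (-0.46, adjusted p 0.0173), with the GC trend removed (adjusted p 0.0495), without both unrestricted males numbered up to 28 (adjusted p 0.0432) and in 12 of 48 edgeR fits that left out 1 library. That against unrestricted mice was called with limma voom (-0.48, adjusted p 0.0317) and without those males (-0.52, adjusted p 0.0421). With library number as a limit, the 5 unrestricted mice numbered up to 28 had a median of 2.04 CPM beside 1.95 in refed mice, and in those libraries alone the refed change against unrestricted was -0.00. Pfkfb3 (chr2:11476244-11558888, minus strand), whose enzyme makes a fructose bisphosphate that activates glycolysis, had medians of 37.5, 39.2 and 39.1 CPM. Its largest change over both sexes was 0.08 (SE 0.05, adjusted p 0.293, edgeR), upon restriction.

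No member was called between genotypes or between sexes. Over all combinations 0 of 9 members were called between knockouts and controls by edgeR, against 0.00576% of all genes, with 0 at an unadjusted p under 0.05 and changes between -0.11 (Adm) and 0.01. Vegfa averaged 98.3 CPM (SD 12.9, n = 24) in controls and 98 (SD 11, n = 24) in knockouts, a log2 change of -0.01 (SE 0.03, adjusted p 1). Hif3a averaged 10.9 CPM (SD 6.04) in controls and 11 (SD 6.07) in knockouts (0.00, SE 0.13, adjusted p 1). When each sex was split by feeding state, edgeR called 0 of 54 tests of the knockout, and 2 reached an unadjusted p under 0.05. The background there was 0.0115%, 0.386% and 0.00576% of all genes in unrestricted, restricted and refed females, and 0.00576%, 0.00576% and 0.225% in males. Between males and females 0 of 9 members were called, against 0.357% of all genes, with 0 at an unadjusted p under 0.05. The differences of changes between genotypes, sexes and feeding states gave 0 called of 36 tests, against 0% of all genes in each, with 4 at an unadjusted p under 0.05 and a lowest adjusted p of 0.524 (Hif1a and Ankrd37, genotype by sex by feeding). For Vegfa the difference between the sexes in their feeding changes was not called (adjusted p 0.926).

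The receptors that Vegfa acts on were examined next, over a list of 9 ligands and receptors of its family. Upon restriction 2 of 9 were lower and 0 higher, against 15.2% of all genes called in either direction, with a list median of -0.12 beside 0.00 for all genes. Kdr, the main signalling receptor of the endothelium, had a median of 12.8 CPM in unrestricted, 8.45 in restricted and 9.79 in refed mice. It fell by 0.58 upon restriction (SE 0.09, adjusted p 1.63e-06, edgeR) and was 0.34 below unrestricted mice after refeeding (log2 change -0.34, adjusted p 0.0341), so that Kdr, like Vegfa, was called in both comparisons with unrestricted mice. The ligand gene Vegfb fell by 0.16 upon restriction and rose by 0.12 upon refeeding. The coreceptor genes Nrp1 (0.17) and Nrp2 (0.21) were higher upon refeeding. Flt1, which encodes a decoy-like receptor, was at -0.05 and 0.02 against unrestricted mice, called in neither.

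Among 11 tested genes of angiopoietin, apelin and adrenomedullin signalling, 3 were lower and 2 higher upon restriction, against the same 15.2%. Esm1, Aplnr and Adm2 had too few counts. Apln, a peptide gene of sprouting vessels, had medians of 45.8, 29.8 and 37.2 CPM in unrestricted, restricted and refed mice, fell by 0.57 upon restriction (SE 0.05, adjusted p 2.41e-11, edgeR), and was still lower by 0.28 after refeeding (log2 change -0.28, adjusted p 0.00157). Tek, the angiopoietin receptor gene, fell by 0.51 upon restriction and was at -0.01 against unrestricted mice after refeeding (not called), with medians of 9.42, 6.74 and 9.55 CPM. Tie1, its relative, fell by 0.43 upon restriction. Ramp2, a partner of the adrenomedullin receptor, was higher upon restriction by 0.65, and Angptl4, a lipase inhibitor gene that HIF and fasting signals induce, by 0.98. Upon refeeding all 5 genes were called with the opposite sign, Angptl4 at -1.41. So of these vessel genes Kdr and Apln were, like Vegfa, called lower in refed than in unrestricted mice. They were 1 of 9 and 1 of 11 tested genes of the 2 lists, against 0.738% of all genes. Unlike Vegfa, Kdr and Apln were not refitted by library number, and with that term 0.109% of all genes were called. Tek and Tie1 were called lower upon restriction and not after refeeding.

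**Figure D4:**
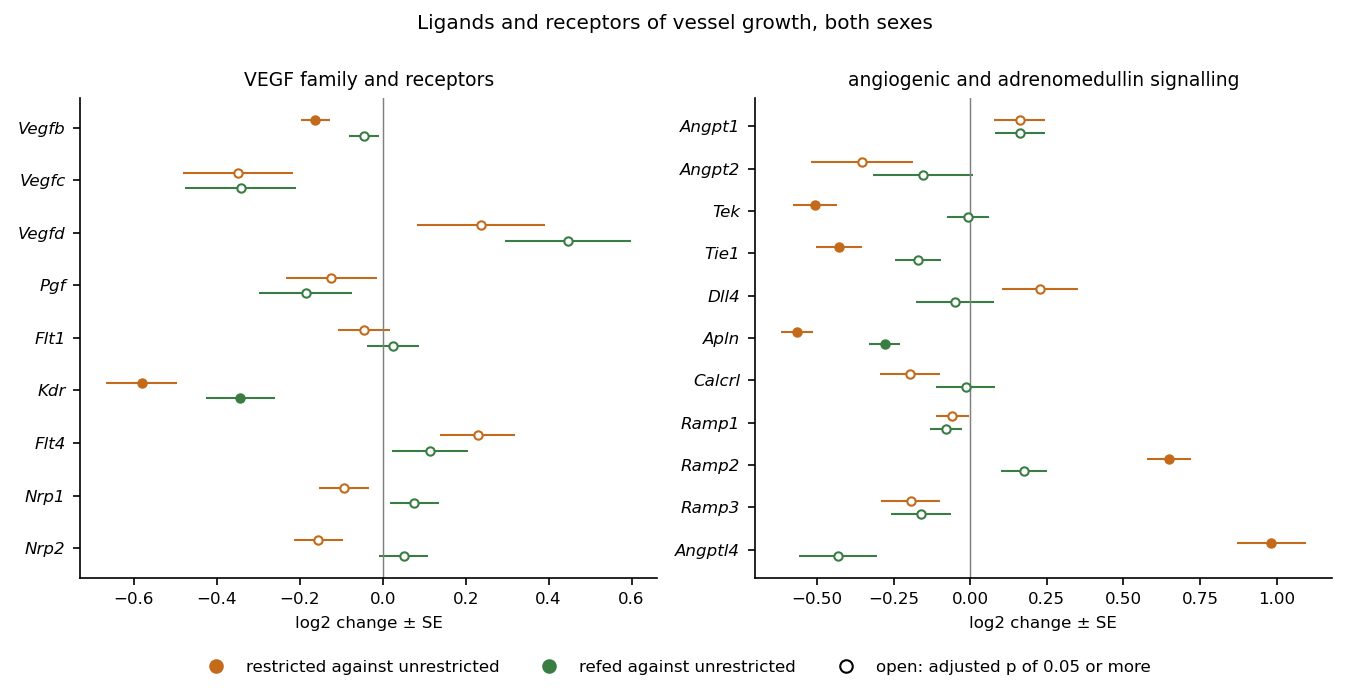
Log2 change ± SE (horizontal axes) of the ligand and receptor genes of the VEGF family (left) and of angiogenic and adrenomedullin signalling (right), in restricted (orange) and refed (green) against unrestricted mice, both sexes together, with filled points where the adjusted p was under 0.05. Kdr (-0.58 and -0.34) and Apln (-0.57 and -0.28) are called in both comparisons, and of the 2 comparisons drawn Tek (-0.51) and Ramp2 (0.65) are called upon restriction.

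Markers of vessel cells moved too. Beside the 15.2% of all genes called upon restriction, 5 of 12 endothelial markers were called. Of these, 3 were lower upon restriction (Cldn5 -0.24, Emcn -0.33 and Itm2a -0.32) and 2 higher (Slco1a4 0.21 and Robo4 0.35), and their summed level was 219 to 289 CPM in unrestricted, 199 to 270 in restricted and 238 to 277 in refed mice. Of 10 pericyte and smooth muscle markers 3 were lower upon restriction and 0 higher, and their sums were 201 to 247, 151 to 229 and 198 to 273 CPM. In refed against unrestricted mice edgeR called 0 of 12 and 0 of 10, with 2 and 1 at an unadjusted p under 0.05, which at a background of 0.738% says little about these markers. The part of vessel cell content in the restriction changes of Kdr, Tek and Apln was not tested.

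Other known HIF targets did not share 1 direction. Of 23 genes of glycolysis and glucose uptake, 3 were higher and 2 lower upon restriction, against 15.2% of all genes called, with a median of 0.00 beside 0.00 for all genes. Slc2a1, the glucose transporter gene of the blood-brain barrier, rose by 0.65 (SE 0.07, adjusted p 4.95e-09, edgeR), from a median of 76.1 to 126 CPM, and the lactate genes Ldha (-0.15) and Slc16a1 (-0.23) fell. Of 26 tested other targets, 6 were higher and 2 lower upon restriction, against the same 15.2%, with a median of 0.04. The largest were Ddit4, a stress-induced inhibitor of mTOR signalling that glucocorticoids also induce (0.71, adjusted p 5.91e-09), the histone demethylase gene Kdm3a (0.27), the transferrin receptor gene Tfrc (0.27) and the carbonic anhydrase gene Car12 (-0.26). Upon refeeding, 2 of the 23 genes were called higher and 3 lower, with a median of 0.015. Of the 26, 2 were called higher and 5 lower, with a median of -0.117 beside -0.001 for all genes. The share of all genes called upon refeeding was 15.2%. In refed against unrestricted mice edgeR called 0 of 23 and 0 of 26, with 4 and 5 at an unadjusted p under 0.05, and the background of 0.738% leaves few calls to be found in lists of this size. Classical targets such as Pgk1 (0.00 upon restriction, -0.03 refed against unrestricted) and Bnip3 (0.06 and -0.08) were called in neither.

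The genes whose 12 group means followed those of each member most closely were listed as a description. For Vegfa these were Mmp14 (r = 0.93 over 12 group means), Hunk (0.92), D430040D24Rik (0.90), Tmem254 (0.90) and Nfil3 (0.87). For Hif3a they were Cpm, Endod1 and Gpt2, at 0.98 each, for Ankrd37 4930507D05Rik (0.94), Bmf (0.92) and Emd (0.92), and for Adm Depp1 (0.91), Gmfg (0.90) and Npy (0.90). None of these lists holds another member. Deviations of single mice from their group means were compared between members. Of 36 pairs, 0 had correlated deviations from the group means after adjustment (permutation tests over 48 libraries, smallest adjusted p 0.134). The pair with the largest r over all libraries was Epas1 with Hif3a (Pearson r = 0.52, permutation p 0.00518, adjusted p 0.134; Spearman rho 0.45, permutation p 0.00734, adjusted p 0.264), at 0.43 without the 2 most extreme libraries and at 0.25 when deviations were taken within library number classes. Of all tested genes, 20.9% had deviations correlated with those of Epas1 at least as strongly in either direction, and 0.749% with those of Hif3a. Within library number classes other pairs had larger values, given as a description and not tested: Hif1a with Hif3a was at -0.59 (-0.84 among refed mice, and -0.09 by deviations from the group means), and Epas1 with Pfkfb3 at 0.55 (0.71 among refed mice, and 0.44). A mouse alone in its group and class adds nothing to the values within classes, while the refed groups stay whole. Those values therefore do not weigh all 48 libraries alike.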

How the data were processed

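Messenger RNA of 1 brain hemisphere from each of 48 mice was sequenced after poly-A selection, per the labels' protocols. The authors deposited expected counts (estimated reads per gene and library) in 1 table, unscaled. The submitters' processing notes name fastp, STAR, Salmon and mm39, and the annotation and strand setting are not given in the sources used here. Columns were matched by library name, and replicates were numbered in record order. Expected counts were rounded. Genes were filtered with filterByExpr (minimum count 10), scaled with TMM (factors 0.913 to 1.03) and fitted with 1 coefficient per group by the quasi-likelihood method of edgeR 4.0.16 in R 4.3.3, with Benjamini-Hochberg adjustment over 17352 genes. The fit was also run on simulated data, and the outcome is not given here. CPM values are TMM scaled, with a prior count of 2 on the log2 scale. Lengths and positions are from GENCODE on GRCm39 and its canonical transcripts. Each library is 1 mouse, and replicate pairs differed by more than counting noise (72 pairs, chi-square per gene at least 2.28). Errors cover mice and counting, and the labels mention no molecular identifiers.

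The members and the 16 gene lists were chosen with earlier results of these data known. Named genes were the members, up to 4 called genes per list and comparison with the largest changes, the genes most alike in group means (5 for Vegfa, 3 for the others), and a few genes named after their values were seen (Fkbp5, Per2, Flt1, Tie1, Slco1a4, Pgk1, Bnip3). Alternatives were DESeq2 1.42.0, RLE size factors, no count filter, limma voom 3.58.1 with sample weights, age, a library number term, only the groups compared, a threshold of 0.1, removed length trends, and libraries left out. Added after seeing the data were a removed GC trend, library number classes alone, and leaving out both unrestricted males numbered up to 28 or both libraries rich in muscle genes. Of further cell markers, 0 of 8 choroid plexus genes were called between feeding states. Of all genes, 15.2% were called upon restriction, 15.2% upon refeeding and 0.738% in refed against unrestricted mice.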

Additional observations from a re-analysis of the deposited data

Results flagged for a closer look

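In 108 groups of 4 mice (9 members in 12 groups), 5 held a mouse set apart from the other 3 by more than the 95% limit of Dixon's test on gaps within a group, which chance passes in about 1 group in 20. Hif3a was at 12.1 CPM in male knockout unrestricted replicate 1, beside 3.05 to 3.17 CPM in the other 3. Hif1a was at 70.1 CPM in the same mouse, beside 63.1 to 64.3, and at 69.4 CPM in female knockout restricted replicate 4, beside 61.6 to 62.6. Epas1 was at 131 CPM in female knockout unrestricted replicate 4, below the 148 to 151 CPM of its group. Egln1 was at 90.4 CPM in female control restricted replicate 3, below the 95.9 to 96.6 CPM of its group. The Hif1a, Epas1 and Egln1 values lay within the range of the other groups. The Hif3a value lay above all female unrestricted mice and was matched among unrestricted mice by male control replicate 1 at 12.3 CPM.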

How the results depend on the processing

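Of 6147 recomputed member values 6060 kept their side of the threshold, among them 223 that were called in neither fit and changed sign. A further 30 lost and 57 gained a call, and 0 called values reversed. The counts of members called below are out of 9. For refed against unrestricted mice of both sexes the count of 2 became 5 with limma voom, 1 with a library number term and 1 in numbers up to 28 alone; in females the count of 1 became 2 without the filter, 2 in only the groups compared, 0 in numbers up to 28 alone and 2 without both unrestricted males numbered up to 28; in males it became 2 without the filter, 5 with limma voom, 0 with the term, 0 in numbers up to 28 alone and 3 without both those males. The share of all genes called moved with these settings: for both sexes it was 0.738%, 5.15% with limma voom and 0.109% with the term, in males 0.167% and 7.47% with limma voom, and in numbers up to 28 alone it was 0% in each sex. For refed against restricted mice the count of 2 became 4 at a threshold of 0.1, 4 with the GC trend removed and 1 in numbers up to 28 alone; in females it became 1 without the filter, with age, with the term, in numbers up to 28 alone and without both libraries rich in muscle genes; in males it became 1 with the term, in only the groups compared and in numbers up to 28 alone. For restriction the count of 2 per sex became 1 in females in either number class, and in males 0 in numbers up to 28 and 1 from 29. Leaving out single libraries gave 1 to 2 for refed against restricted in females (1, without Ankrd37, when any of female control refed 1 or 4, female knockout refed 1, 2 or 3, female control restricted 2, 3 or 4, or female knockout restricted 1 or 3 was left out) and 1 to 2 in males (male control restricted 4). It gave 2 to 4 for refed against unrestricted mice and 1 to 5 in males, with the highest counts without male control refed 2, where Ankrd37 reached an adjusted p of 0.0468 for both sexes and Adm 0.0491 in males, and 2 in males without replicate 1 of either unrestricted male group. The cause of these moves was not tested, except that single classes hold fewer libraries. No paired analysis was possible because the labels give no replicate numbers and each mouse gave 1 library. Depth limits Adm, Ankrd37, Egln3 and Hif3a, at medians of 2.38, 4.80, 8.21 and 10.1 CPM, more than the other members.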
